A study of Mus musculus with 16 samples.

Results

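The genes described here are 34 interferon-stimulated genes that lie outside the Oas gene cluster, measured in mouse liver with and without lipocalin 2 (Lcn2) and with and without chronic carbon tetrachloride (CCl4) injury. They were chosen by name as classical targets of the interferons, and they are 34 of the 24363 genes tested on these arrays. Of them, 24 are mainly known as targets of type I interferon and 10 as targets of interferon gamma. The type I members are Ifit1, Ifit2, Ifit3, Isg15, Irf7, Irf9, Mx1, Mx2, Usp18, Rsad2, Stat2, Ifi44, Ifih1, Ddx58, Dhx58, Xaf1, Herc6, Parp14, Bst2, Ifi35, Ifitm3, Zbp1, Eif2ak2 and Cmpk2. The gamma-type members are Irf1, Gbp2, Gbp3, Igtp, Irgm1, Irgm2, Iigp1, Psmb8, Psmb9 and Tap1.

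Liver RNA from 16 male BALB/c mice, aged 6 to 8 weeks when treatment began, was hybridised to Agilent 1-colour arrays, 1 animal per array. The animals were wild type (WT) or Lcn2-/-, that is, without the gene for lipocalin 2, a secreted protein that binds iron-carrying siderophores. CCl4, a solvent that hepatocytes turn into a toxic radical, was injected intraperitoneally at 0.5 ml/kg in corn oil, 2 times per week for 4 weeks, and livers were collected 48 h after the last injection. Control mice of both genotypes received corn oil. The groups were WT control (n = 4), Lcn2-/- control (n = 3), WT CCl4 (n = 5) and Lcn2-/- CCl4 (n = 4). The deletion is present in every cell of the animal, and per the study's methods it was made on a mixed B6.129 background and then backcrossed to BALB/c, so that DNA linked to the deleted gene can differ from that of the WT mice.

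Interferons are secreted when cells sense foreign nucleic acid or when lymphocytes are activated. Type I interferons signal through JAK kinases to a complex that contains STAT2 and IRF9 and binds interferon-stimulated response elements, whereas interferon gamma acts mainly through gamma-activated sites. In the liver hepatocytes, Kupffer cells and endothelial cells all respond, and the induced genes make sensors of viral RNA, proteins that block viral replication, GTPases that attack intracellular vacuoles and the machinery of antigen presentation.

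Every member was well above background on all 16 arrays, and none had a saturated spot. The label of the deleted gene was borne out: on the log2 scale Lcn2 lay between 10.47 and 12.25 on the Lcn2-/- arrays and between 13.79 and 17.57 on the WT arrays. Between 51.6% and 60.9% of all spots on an array were well above background. The arrays lay on 2 slides. Slide 1 carried all 7 control arrays and WT CCl4 replicate 1, and slide 2 carried the other 8 CCl4 arrays. On each slide the WT arrays filled row 1 and the Lcn2-/- arrays row 2, except WT CCl4 replicate 1, which lay in row 2 of slide 1. Slide therefore cannot be told apart from treatment, nor slide row from genotype, other than through WT CCl4 replicate 1, and values with and without it are given below.

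All levels below are quantile-normalized log2 intensities, so a difference of 1 is a doubling, and levels of different genes are not set against each other because probes differ in brightness. Most members differed more between animals of 1 group than the median gene did. The SD within groups had a median of 0.505 over the 24 type I members and 0.881 over the 10 gamma-type members, against 0.295 over all genes tested. It was above the median of all genes for 17 of 24 type I members and for 10 of 10 gamma-type members. The lowest was that of Ifitm3, a membrane protein that blocks fusion of viruses with the cell, at 0.182, and the highest that of Gbp2, a guanylate-binding protein that coats pathogen vacuoles, at 1.46.

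**Figure D1:**
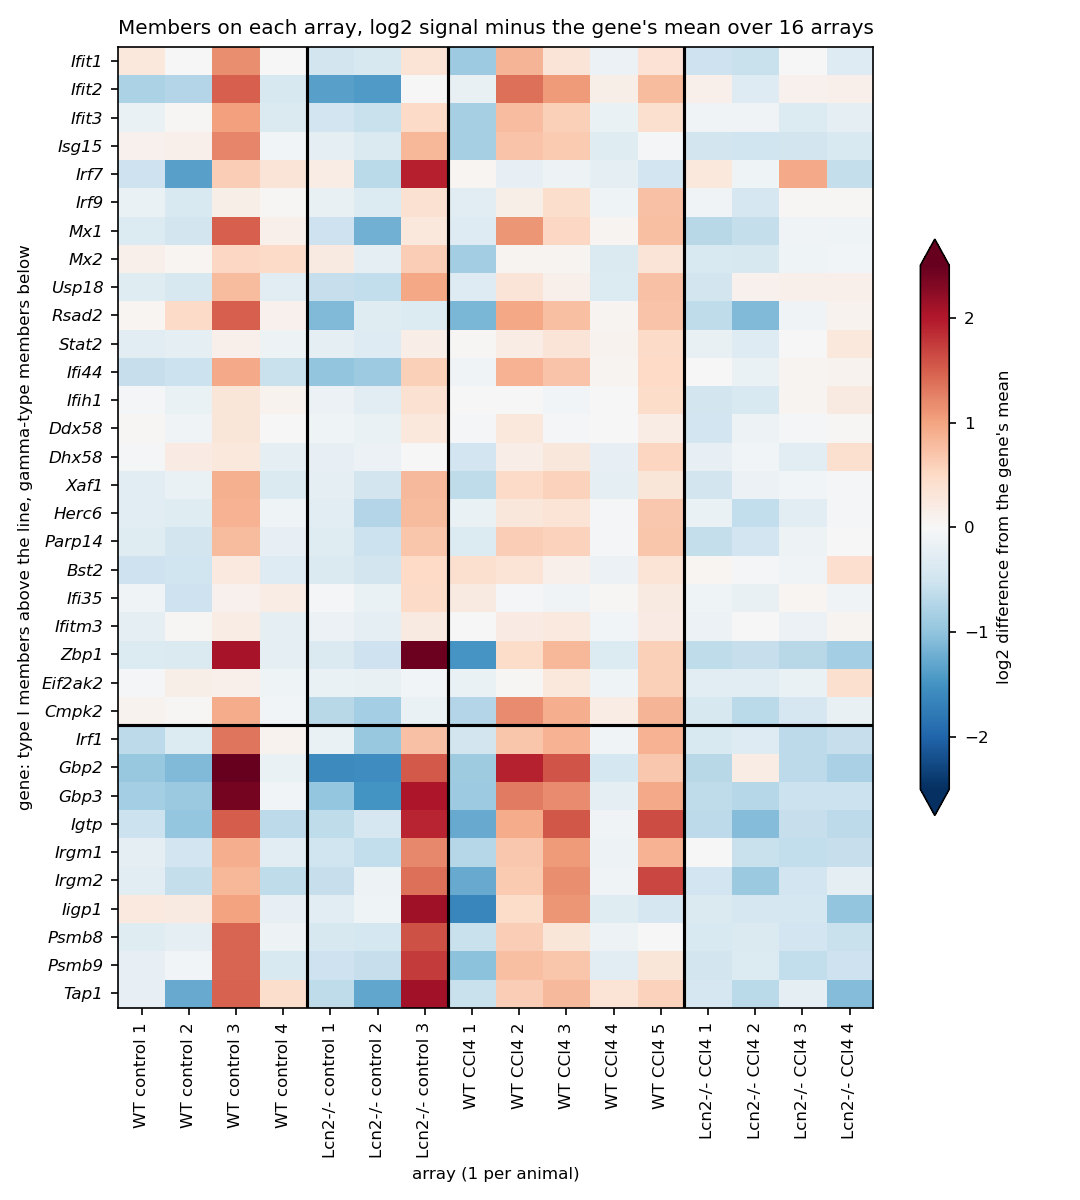
Heat map of the 34 members (rows, type I above gamma-type) on the 16 arrays (columns, by group), coloured by log2 level minus the gene's mean over all arrays. The columns of WT control replicate 3 and Lcn2-/- control replicate 3 are high for nearly all members, as are WT CCl4 replicates 2, 3 and 5 to a lesser degree, while the 4 Lcn2-/- CCl4 columns are low for the gamma-type members.

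In the controls the spread came mostly from 1 animal of each genotype. WT control replicate 3 was the highest of the 4 WT control arrays for 32 of 34 members, against 21.6% of all genes tested. Lcn2-/- control replicate 3 was the highest of the 3 Lcn2-/- control arrays for 33 of 34 members, against 32.0% of all genes. These arrays shared column 3 of slide 1, and the part of slide column in their levels was not tested. Among the 5 WT CCl4 arrays, replicate 1 was the lowest for 27 of 34 members, including all 10 of gamma type, against 22.6% of all genes. Replicates 2, 3 and 5 of that group were the highest for 13, 7 and 12 members, and replicate 4 for 0.

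Igtp, an immunity-related GTPase recruited to pathogen vacuoles, shows the pattern. Its log2 level was 14.94, 14.53, 17.002 and 14.84 in WT controls and 14.86, 15.08 and 17.39 in Lcn2-/- controls. In WT CCl4 livers it was 14.24, 16.43, 17.04, 15.39 and 17.12, and in Lcn2-/- CCl4 livers it was 14.83, 14.40, 14.92 and 14.84. The high values thus occurred in both control groups and in the WT CCl4 group, and the 4 Lcn2-/- CCl4 animals all lay within the lower range. The lowest and the highest array differed 8.93-fold.

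Gbp2 spanned the widest range of the members, 23.6-fold. In WT controls its log2 level was 10.06, 9.89, 13.97 and 10.83, and in Lcn2-/- controls 9.41, 9.44 and 12.54. With CCl4 it was 10.11, 12.94, 12.58, 10.56 and 11.68 in WT and 10.32, 11.20, 10.35 and 10.19 in Lcn2-/- livers. The same arrays were high as for Igtp, and all groups overlapped. Gbp3, its neighbour on chromosome 3 and of the same protein family, was at 10.94, 10.86, 14.16 and 11.72 in WT controls and at 10.80, 10.28 and 13.80 in Lcn2-/- controls. After CCl4 it was 10.88, 13.08, 12.97, 11.57 and 12.73 in WT and 11.15, 11.07, 11.24 and 11.24 in Lcn2-/- animals. The SD of Gbp3 was 0.971 in the WT CCl4 group and 0.0814 in the Lcn2-/- CCl4 group.

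Of the type I members, Zbp1, a sensor of left-handed nucleic acid that can trigger cell death, varied most, 15.3-fold between its lowest and highest array. It was at 11.52, 11.49, 13.91 and 11.62 in WT controls, at 11.49, 11.35 and 14.32 in Lcn2-/- controls, at 10.38, 12.32, 12.68, 11.51 and 12.45 in WT CCl4 livers and at 11.22, 11.28, 11.16 and 11.00 in Lcn2-/- CCl4 livers. Each control 3 array stood more than 2 log2 units above the others of its group. Isg15, a ubiquitin-like protein attached to other proteins during infection, was at 14.79, 14.81, 15.92 and 14.63 in WT controls and at 14.46, 14.33 and 15.51 in Lcn2-/- controls. It was at 13.86, 15.40, 15.34, 14.39 and 14.63 in WT CCl4 livers and at 14.23, 14.18, 14.22 and 14.30 in Lcn2-/- CCl4 livers, with an SD of 0.653 in the former and 0.0494 in the latter. Irf7, a transcription factor that amplifies type I interferon production, departed from this pattern: it was at 10.39, 10.12, 10.21, 10.08 and 9.85 in WT CCl4 livers, an SD of 0.196, and at 10.60, 10.22, 11.28 and 9.73 in Lcn2-/- CCl4 livers, an SD of 0.651.

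The range between the highest and the lowest array differed widely among members. Iigp1, a further immunity-related GTPase, spanned 13.4-fold, the peptide transporter Tap1 10.5-fold, Irf7 9.85-fold, Irgm2 7.62-fold, the RNA-binding Ifit2 7.46-fold and Psmb9, a subunit of the immunoproteasome, 6.87-fold. At the other end stood Ifitm3 with 1.40-fold, the RNA sensor Ddx58 (RIG-I) with 1.73-fold, the signal transducer Stat2 with 1.74-fold, Eif2ak2 (PKR, a kinase that stops translation) with 1.83-fold, the RNA sensor Ifih1 (MDA5) with 1.90-fold and Ifi35 with 1.97-fold. The RNA sensors and the signalling member Stat2 were thus among the members with a narrow range, while the nucleic acid sensor Zbp1 and the transcription factor Irf7 were not.

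The genes of antigen presentation had the same high and low arrays. Psmb8, an immunoproteasome subunit, was at 14.04, 14.13, 15.81 and 14.22 in WT controls, 13.95, 13.91 and 15.94 in Lcn2-/- controls, 13.80, 14.97, 14.65, 14.21 and 14.34 in WT CCl4 and 13.97, 13.99, 13.87 and 13.79 in Lcn2-/- CCl4 livers. Its partner Psmb9 was at 14.61, 14.75, 16.26 and 14.44 in WT controls, 14.29, 14.24 and 16.56 in Lcn2-/- controls, 13.78, 15.57, 15.50, 14.55 and 15.10 in WT CCl4 and 14.35, 14.46, 14.18 and 14.29 in Lcn2-/- CCl4 livers. For both genes the control 3 arrays were the highest of all 16. Ifi44, of the type I list, was at 10.84, 10.88, 12.36 and 10.86 in WT controls, 10.42, 10.50 and 12.002 in Lcn2-/- controls, 11.33, 12.28, 12.12, 11.48 and 11.91 in WT CCl4 and 11.40, 11.25, 11.48 and 11.51 in Lcn2-/- CCl4 livers. Here every CCl4 array lay above the controls of its genotype other than replicate 3.

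Averaged over its members, the gamma-type class was at 13.14, 12.96, 15.07 and 13.34 in WT controls, at 12.91, 12.78 and 15.17 in Lcn2-/- controls, at 12.61, 14.40, 14.56, 13.40 and 14.24 in WT CCl4 livers and at 13.09, 13.02, 13.01 and 12.88 in Lcn2-/- CCl4 livers. The group means were 13.63 ± 0.974 (SD, n = 4), 13.62 ± 1.34 (n = 3), 13.84 ± 0.822 (n = 5) and 13.00 ± 0.0869 (n = 4). The type I class moved over a narrower range, with group means of 12.29 ± 0.467, 12.12 ± 0.557, 12.40 ± 0.382 and 12.05 ± 0.153 in the same order. Both classes were highest on the control 3 array of each genotype and lowest within WT CCl4 on replicate 1.

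**Figure D2:**
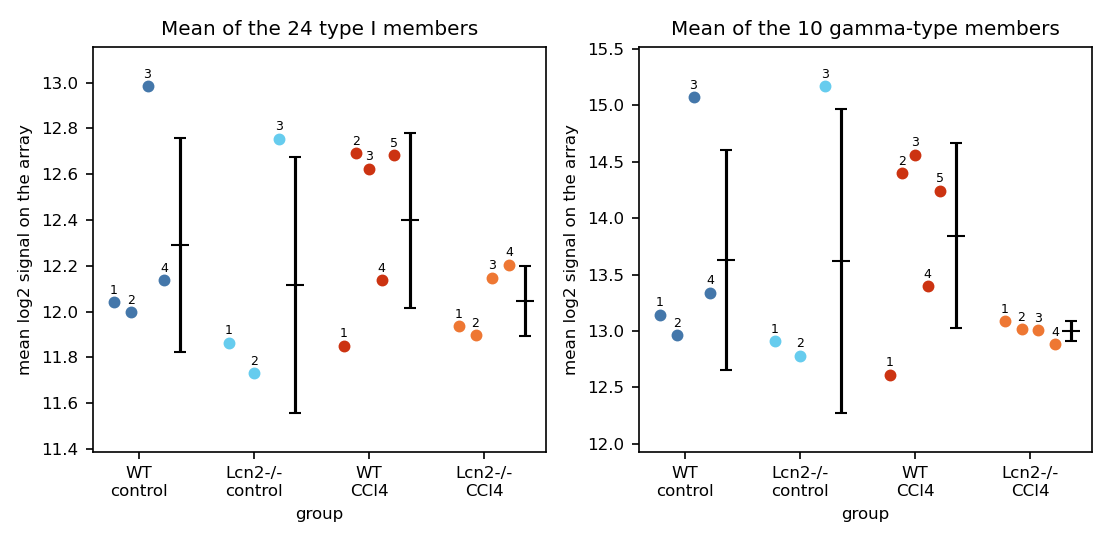
Mean log2 level of the 24 type I members (left) and the 10 gamma-type members (right) on each array, by group, with replicate numbers beside the points and group mean ± SD bars. The Lcn2-/- CCl4 arrays lie within 0.21 log2 units of each other for the gamma-type class, while the other 3 groups each span 1.95 to 2.39.

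The members' levels went together from animal to animal. After subtraction of the group means, the correlation across the 16 arrays had a median r of 0.88 over the 45 pairs of gamma-type members, 0.71 over the 276 pairs of type I members and 0.79 over the 240 pairs between the classes. It was above 0 for 45, 273 and 240 of these pairs. With both control 3 arrays left out, the medians over the remaining 14 arrays were 0.76, 0.59 and 0.63. These correlations describe the arrays and share their normalization and animals, so no p is given. The type I members whose deviations most resembled those of the gamma-type mean were Zbp1 (r = 0.99), Ifi44 (0.96), the pro-apoptotic Xaf1 (0.95), Ifit2 (0.94) and Isg15 (0.94), and the least like it were Eif2ak2 (0.35), Ifi35 (0.46) and Ifih1 (0.53). The median over type I members was 0.82, against -0.11 over the genes that are not members, of which 2.44% reached the type I median.

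Promoters of some members are shown because both classes are known for short interferon response motifs near the start site. Promoter sequence from 250 bases before to 50 after the start was taken from RefSeq (build GRCm38.p6), where 27 of the 34 members had an entry. Mx1, Mx2, Usp18, Dhx58, Parp14, Zbp1 and Iigp1 did not. The motifs searched on both strands were GAAA, any 2 bases and GAAA again, as in interferon-stimulated response elements, and TTCNNNGAA, as in gamma-activated sites. The genes printed were picked by hand, and only where a match lay before the start, not by how they varied together. Psmb9 was also picked but had no match. Of the type I members most like the gamma-type mean, Isg15 held a match while Ifi44 and Xaf1 held none. Each stretch is printed 5′ to 3′ on the strand of the gene, with the bases of the matches in capitals.
Isg15, chr4:156200860-156200911, minus strand: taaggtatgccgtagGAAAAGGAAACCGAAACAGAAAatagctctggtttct
Ifit1, chr19:34640770-34640828, plus strand: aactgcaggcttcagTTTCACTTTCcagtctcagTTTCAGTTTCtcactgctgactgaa
Rsad2, chr12:26456548-26456587, minus strand: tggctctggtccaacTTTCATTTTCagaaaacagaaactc
Igtp, chr11:58199496-58199546, plus strand: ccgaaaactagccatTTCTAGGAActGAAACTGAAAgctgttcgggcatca
Irgm1, chr11:48871421-48871465, minus strand: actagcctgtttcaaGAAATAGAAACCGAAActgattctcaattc
Gbp2, chr3:142620589-142620628, plus strand: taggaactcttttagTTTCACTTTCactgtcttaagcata
Irf1, chr11:53769909-53769947, plus strand: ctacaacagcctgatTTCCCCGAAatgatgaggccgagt

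The GAAA motif stands 3 times, overlapping, in the Isg15 stretch, 2 times apart in Ifit1, 2 times overlapping in Irgm1 and once each in Rsad2, Igtp and Gbp2. The second stands once in Irf1, a transcription factor induced by interferon gamma, and once in Igtp, just before the first. The first motif was found for 15 of 27 members (55.6%), 10 of 18 type I and 5 of 9 gamma-type, against 3.99% of the 27025 genes with an entry. TTCNNNGAA was found for 9 of 27 (33.3%), 5 of 18 type I and 4 of 9 gamma-type, against 9.55% of genes. Both were present for 5 members (18.5%, against 0.614%) and neither for 8 (29.6%, against 87.1%), and in Bst2 and Ifitm3 a match of one overlapped a match of the other. A match is a description of these letters and was not tested as a binding site, and 7 members could not be looked at.

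Compared between groups, no member passed the test in any of the 5 comparisons made (limma, Benjamini-Hochberg adjusted p under 0.05 over all 24363 genes). In bulk liver a difference in RNA per cell and a difference in the number of cells of a type cannot be told apart.

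The first comparison was the CCl4 response of WT livers, which asks what chronic injury does to these genes. Of the members 26 were higher and 8 lower with CCl4 by their mean difference, and 0 of 34 passed the test, against 16.8% of all genes tested. At an unadjusted p under 0.05 there were 2 members, Stat2 and Bst2, against 30.7% of all genes. The median difference was 0.12 over type I members, 0.29 over gamma-type members and -0.03 over all genes. Under the 75th percentile scaling the split was 21 higher and 13 lower, with the median of all genes at -0.16.

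Stat2, a part of the type I transcription complex together with IRF9, was at 14.26, 14.28, 14.65 and 14.40 in WT controls and at 14.55, 14.70, 14.84, 14.61 and 15.01 in WT CCl4 livers. It differed by 0.35 on the log2 scale (SE 0.15, 95% interval 0.03 to 0.66), with the lowest limma adjusted p of the members, 0.128. The exact two-sided permutation p over 126 arrangements was 0.0397, not adjusted and likewise the smallest of the members. The highest control array lay above the lowest CCl4 arrays. Bst2, or tetherin, which holds budding viruses on the cell surface, was at 15.44, 15.46, 16.20 and 15.65 in WT controls and at 16.36, 16.31, 16.09, 15.81 and 16.30 in WT CCl4 livers, a difference of 0.49 (SE 0.21, limma adjusted p 0.138).

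Ifit2 had the largest difference on the higher side, 0.75 (SE 0.46, 95% interval -0.24 to 1.74, limma adjusted p 0.296). Its level was 8.52, 8.58, 10.81 and 8.92 in WT controls and 9.14, 10.69, 10.38, 9.47 and 10.11 in WT CCl4 livers. Every CCl4 array was above 3 of the controls and below WT control replicate 3. The next were Igtp at 0.71 (SE 0.67) and Irgm2, its neighbour on chromosome 11 and a GTPase of the same family, at 0.59 (SE 0.54), with limma adjusted p of 0.508 and 0.495. With slide as a fixed block, which rests on WT CCl4 replicate 1, Ifit2 was at -0.069, Igtp at -1.09 and Irgm2 at -1.09. Among the lower members were Iigp1 at -0.48 (SE 0.53), the dynamin-like GTPase Mx2 at -0.45 (SE 0.23) and Isg15 at -0.31 (SE 0.34). Mx2 was at 11.61, 11.53, 11.9965 and 11.97 in controls and at 10.61, 11.55, 11.55, 11.12 and 11.80 with CCl4, which overlap. In 0 of 34 members were the WT control and WT CCl4 arrays fully apart, against 17.4% of all genes.

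The count of 0 members past the test depended on the fit and on WT control replicate 3. Without it, 3 members passed the test with limma: Ifit2 at 1.28 (adjusted p 0.0235), Ifi44 and Bst2, all higher with CCl4, against 21% of all genes, and 31 members were higher and 3 lower. Without both control 3 arrays the members that passed were 4, with Stat2 in addition, against 22.4% of all genes. With all arrays kept, array weights gave 1 member, Stat2 (limma adjusted p 0.0312), against 28.9% of all genes. Slide as a fixed block moved Mx2 to -1.17, a value that rests on WT CCl4 replicate 1. Other omissions lowered the gamma-type median: it was -0.04 without WT control replicate 2, with 4 of these members higher and 6 lower, and 0.0084 without WT control replicate 1. The arrays of WT CCl4 split the other way: replicate 1, the only CCl4 array on the slide of the controls, was lower than the WT control mean for 28 of 34 members, with a median of -1.06 over the gamma-type members, and without it the gamma-type median of the response was 0.56.

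**Figure D3:**
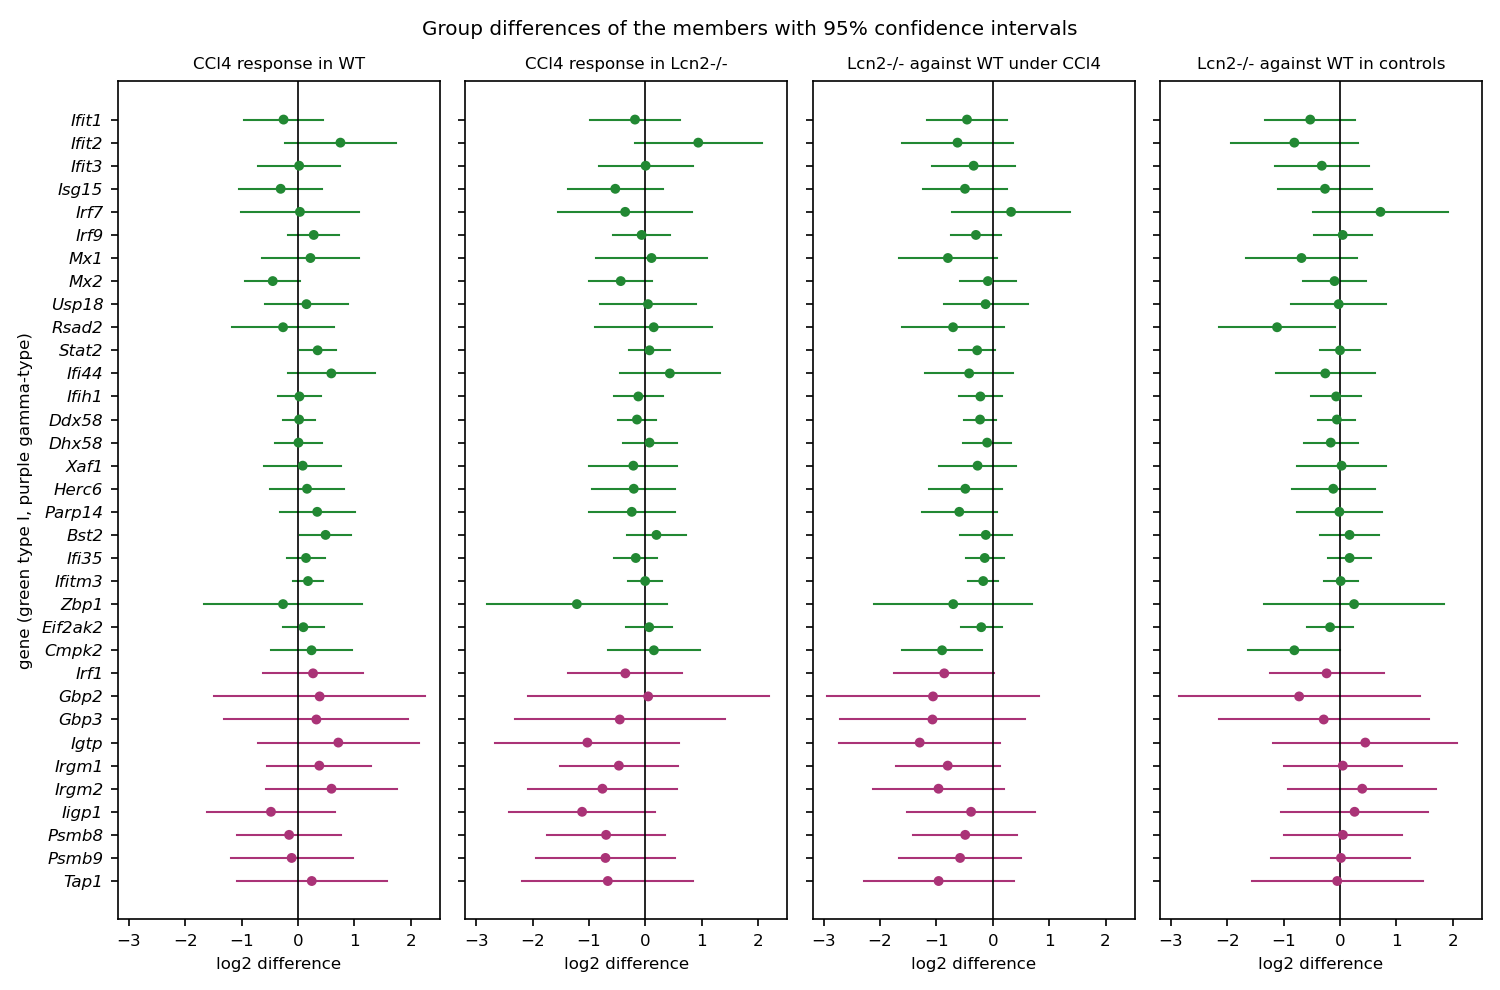
Difference in log2 level for each of the 34 members with its 95% interval from limma, in the 2 CCl4 responses and the 2 genotype comparisons (green type I, purple gamma-type, black line at 0). In Lcn2-/- against WT under CCl4 all but Irf7 lie below 0, and nearly all intervals include 0.

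The second comparison was the CCl4 response of Lcn2-/- livers. By their means 12 members were higher and 22 lower, including 9 of the 10 gamma-type members, and 0 of 34 passed the limma test against 12.2% of all genes. None reached an unadjusted p under 0.05, against 27% of all genes. The median difference was -0.04 over type I members, -0.68 over gamma-type members and -0.02 over all genes.

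The lowest means were those of Zbp1 at -1.22 (SE 0.75, 95% interval -2.82 to 0.38, limma adjusted p 0.317), Iigp1 at -1.12 (SE 0.61, -2.42 to 0.18, adjusted p 0.253) and Igtp at -1.03 (SE 0.76, -2.66 to 0.60, adjusted p 0.413). Iigp1 was at 14.45, 14.61 and 16.84 in Lcn2-/- controls and at 14.37, 14.31, 14.29 and 13.74 with CCl4. For Iigp1, Zbp1 and Isg15 the arrays of both groups were fully apart, 3 of 34 members against 24.8% of all genes. An exact two-sided permutation test over the 35 arrangements gave p = 0.0286 for each, the smallest it can give. In all of them the controls other than replicate 3 lay less than 0.5 log2 units above the nearest CCl4 array. On the other probe of these genes the arrays overlapped for Iigp1 and Zbp1 and were fully apart for Isg15. That probe of Iigp1 was at 12.96, 12.77 and 15.73 in Lcn2-/- controls and at 13.38, 13.10, 13.19 and 12.14 with CCl4.

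On the higher side were Ifit2 at 0.94 (SE 0.53, 95% interval -0.19 to 2.06, limma adjusted p 0.271), Ifi44 at 0.43 (SE 0.41) and Bst2 at 0.20 (SE 0.24). Ifit2 was at 7.96, 7.91 and 9.32 in Lcn2-/- controls and at 9.45, 9.01, 9.43 and 9.45 with CCl4, so that control replicate 3 lay inside the CCl4 range. With slide as a fixed block, which takes the slide difference from WT CCl4 replicate 1 alone, Ifit2 was at -0.088, Ifi44 at -0.19 and the gamma-type median at -1.96. Without Lcn2-/- control replicate 3, 26 members were higher and 8 lower, the gamma-type median was 0.07 and still none passed. Without both control 3 arrays 2 members passed with limma, Ifit2 at 1.40 (adjusted p 0.0184) and Ifi44 at 0.95 (adjusted p 0.0146), against 15.1% of all genes.

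The third comparison set Lcn2-/- against WT livers under CCl4, which asks whether the missing gene alters the injured liver. By their means 33 of 34 members were lower in Lcn2-/- livers, including all 10 of gamma type. The exception was Irf7, which was higher by 0.33 (SE 0.49, 95% interval -0.72 to 1.37). No member passed the limma test (0 of 34), against 0.636% of all genes, and 1 member, Cmpk2, reached an unadjusted p under 0.05, against 13.7% of all genes. That count depended on the spread taken from the other groups: it was 9 in a fit of only the groups compared, against 13.7% of all genes, and 12 without both control 3 arrays, against 16.1%, with 0 passing in both. The median was -0.29 over type I members, -0.91 over gamma-type members and 0.00 over all genes, of which 12182 were higher and 12181 lower. Under the 75th percentile scaling 31 were lower and 3 higher. Many cell markers were lower by their means in the same comparison: 8 of 10 macrophage markers (median -0.65), 7 of 9 neutrophil markers (median -0.82) and 7 of 10 T and NK cell markers (median -0.38). The arrays were fully apart for 2 macrophage markers, 3 neutrophil markers and 0 T and NK cell markers, against 5.66% of all genes, and one of the macrophage markers, Clec4f, was higher in Lcn2-/- livers. Of the other lists, 3 of 3 B cell markers were lower (median -0.24), 5 of 8 hepatocyte markers (median -0.04) and 3 of 5 plasmacytoid dendritic cell markers (median -0.055), while 4 of 6 sinusoidal endothelium markers were higher (median 0.15). The part of other cells in the members' values was not tested.

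The lowest means relative to WT were those of the gamma-type members Igtp at -1.30 (SE 0.67, 95% interval -2.73 to 0.14, limma adjusted p 0.415), Gbp3 at -1.07 (SE 0.76, -2.70 to 0.56) and Gbp2 at -1.06 (SE 0.88, -2.93 to 0.82). Irgm2 was at -0.96, Tap1, which carries peptides into the endoplasmic reticulum for MHC class I, at -0.96, and Irf1 at -0.86. Other gamma-type members differed less, Psmb9 by -0.58, Psmb8 by -0.49 and Iigp1 by -0.38. Tap1 was at 9.19, 10.36, 10.55, 10.09 and 10.32 in WT CCl4 livers and at 9.32, 9.07, 9.52 and 8.65 in Lcn2-/- CCl4 livers, which overlapped through WT CCl4 replicate 1 alone. The exact two-sided permutation p for Tap1 was 0.0317 over 126 arrangements, with limma adjusted p 0.517. This permutation p was not adjusted and was the smallest of the 34 members in the comparison. For Irf1 the WT CCl4 arrays were at 14.10, 15.26, 15.42, 14.48 and 15.42, and the Lcn2-/- CCl4 arrays at 14.18, 14.24, 13.91 and 13.98.

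Among type I members Cmpk2, a mitochondrial nucleotide kinase, was lower by the most: it was at 8.999, 10.92, 10.64, 9.92 and 10.57 in WT CCl4 and at 9.32, 9.06, 9.31 and 9.55 in Lcn2-/- CCl4 livers. The difference was -0.90 (SE 0.33, 95% interval -1.61 to -0.18, limma adjusted p 0.269). Mx1, of the same dynamin-like family as Mx2, was at -0.80 (SE 0.40), Rsad2, or viperin, which makes a chain-terminating nucleotide, at -0.70 (SE 0.42), and Parp14, an ADP-ribosyltransferase, at -0.59 (SE 0.31). The members with the smallest differences were Bst2 at -0.12, Dhx58 (LGP2, a regulator of the RNA sensors) at -0.10, Usp18, which removes ISG15 and dampens the type I receptor, at -0.13, and Mx2 at -0.09. In none of the 34 were the arrays of both groups fully apart, against 5.66% of all genes.

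WT CCl4 replicate 1 again stood apart, with a gamma-type mean of 12.61 and a type I mean of 11.85, both below every other CCl4 array. Without it, that is within slide 2, the gamma-type median was -1.13 and the type I median -0.43, and 10 of 34 members reached an unadjusted p under 0.05, against 12.4% of all genes, but none passed the limma test, the lowest adjusted p being 0.0550. Leaving out WT CCl4 replicate 5 gave 30 lower and 4 higher. With slide row as a term, which leaves WT CCl4 replicate 1 as the only WT array to set against the Lcn2-/- row, 24 members were higher in Lcn2-/- livers and the gamma-type median was 0.35. Slide row and genotype cannot be told apart beyond that array.

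The fourth comparison set Lcn2-/- against WT in corn oil controls. By their means 13 members were higher and 21 lower in Lcn2-/- livers, with medians of -0.08 for type I and 0.03 for gamma-type members and -0.01 for all genes. None of 34 passed the limma test, against 0.529% of all genes, and 1 member, Rsad2, reached an unadjusted p under 0.05, against 8.31% of all genes. Rsad2 and Cmpk2, which are neighbours on chromosome 12 (probes at chr12:27127859-27127918 and chr12:27164119-27164178, build mm9), were the 2 of 34 members whose control arrays were fully apart, against 9.64% of all genes.

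Rsad2 was at 11.17, 11.59, 12.61 and 11.21 in WT controls and at 10.01, 10.80 and 10.77 in Lcn2-/- controls, a difference of -1.12 (SE 0.48, 95% interval -2.15 to -0.08, limma adjusted p 0.534). Cmpk2 was at 9.82, 9.76, 10.65 and 9.65 in WT controls and at 9.03, 8.89 and 9.57 in Lcn2-/- controls, a difference of -0.81 (SE 0.38, limma adjusted p 0.604). For both genes Lcn2-/- control replicate 3, which was high for nearly all members, stayed below every WT control. Rsad2 was lower in Lcn2-/- livers under CCl4 as well, at 9.97, 12.07, 11.86, 11.18 and 11.81 in WT against 10.47, 10.01, 11.03 and 11.19, but there the arrays overlapped. Ifit1 was at 11.33, 11.06, 12.22 and 11.06 in WT controls and at 10.59, 10.67 and 11.41 in Lcn2-/- controls, a difference of -0.53 (SE 0.37). With slide row as a term, which rests on WT CCl4 replicate 1, Rsad2 was at 0.64 and Cmpk2 at 0.70 in controls. The control medians were then 0.45 (type I) and 1.40 (gamma-type).

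The higher members in Lcn2-/- controls were Irf7 at 0.72 (SE 0.56, 95% interval -0.47 to 1.91), Igtp at 0.45 and Irgm2 at 0.39, with limma adjusted p of 0.917 or above. Irf7 was at 9.82, 8.98, 10.94 and 10.65 in WT and at 10.51, 9.65 and 12.28 in Lcn2-/- controls. With controls paired by replicate number, a pairing that the sample titles do not state, the type I mean was lower in the Lcn2-/- animal in all 3. It was at 11.865 against 12.04, 11.73 against 11.999 and 12.76 against 12.98. The gamma-type mean was lower in the first pair (12.91 against 13.14) and the second (12.78 against 12.96) and higher in the last (15.17 against 15.07). The split over members also varied with the arrays that entered. Without both control 3 arrays 5 members were higher and 29 lower in Lcn2-/- livers, with medians of -0.18 for type I and -0.27 for gamma-type members, and none passed. A fit with a replicate block, in which same-numbered arrays of all groups share a term, gave 9 higher and 25 lower. Without Lcn2-/- control replicate 3 all 34 members were lower in Lcn2-/- livers, with a gamma-type median of -0.65, and without WT control replicate 3 the split was 25 higher and 9 lower with a gamma-type median of 0.44.

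The last comparison asked whether the CCl4 response differed between genotypes (Lcn2-/- response minus WT response). The difference was below 0 for 29 of 34 members, including all 10 of gamma type, with medians of -0.16 for type I, -0.71 for gamma-type members and 0.02 for all genes. None passed, against 0.0534% of all genes, and none reached an unadjusted p under 0.05, against 3.33%. The largest were Igtp at -1.74 (SE 1.01, 95% interval -3.91 to 0.43), Irgm2 at -1.35 (SE 0.82, -3.10 to 0.39) and Zbp1 at -0.95 (SE 0.99), all with limma adjusted p of 1.00. On the other side Rsad2 was at 0.41, Ifit2 at 0.19 and Ifit1 at 0.07. Without Lcn2-/- control replicate 3 the split was 24 above and 10 below 0. Without both control 3 arrays 26 of 34 were below 0, including all 10 of gamma type with a median of -0.39, and with the replicate block 25 of 34, again including all 10. All of these comparisons share groups and are not independent of each other.

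The genes upstream of the members were described from a list of 34 ligands, receptors, kinases, sensors and inhibitors, of which 31 were tested. Ifnb1, Ifna4 and the lambda interferon Ifnl2 had no probe past the filter. In WT livers 3 of 31 were higher with CCl4 and 1 lower (limma), against 16.8% of all genes, and in Lcn2-/- livers 2 were higher and 1 lower, against 12.2%. Both subunits of the receptor for interferon lambda rose in each genotype. Ifnlr1, the specific subunit, was at 6.58, 5.78, 6.17 and 5.95 in WT controls and at 8.50, 8.83, 7.89, 8.12 and 8.60 in WT CCl4 livers, a rise of 2.27 (SE 0.289, adjusted p 0.000114). In Lcn2-/- livers it was 6.17, 6.28 and 5.67 in controls and 6.59, 7.86, 7.19 and 8.07 with CCl4, a rise of 1.39 (SE 0.329, adjusted p 0.0132). Il10rb, the subunit shared with other cytokine receptors, rose by 0.82 in WT and by 0.73 in Lcn2-/- livers (adjusted p 0.00905 and 0.0412).

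Of the other pathway genes that passed, the transcription factor Irf3 rose by 0.34 in WT livers (limma adjusted p 0.0187) and Ifnar2, a subunit of the type I receptor, fell by 0.41 (adjusted p 0.0356). Ifna1, a type I interferon, fell by 1.45 in Lcn2-/- livers (limma adjusted p 0.000484), from 7.76, 6.70 and 7.62 to 6.02, 5.74, 5.84 and 6.02. In WT livers Ifna1 did not pass, but it was lower with CCl4 and its arrays did not overlap. It was at 6.34, 6.64, 6.22 and 6.44 in WT controls and at 5.84, 5.60, 5.86, 6.04 and 5.92 in WT CCl4 livers. No pathway gene passed in the genotype comparisons or the interaction, where 2, 2 and 1 of 31 had an unadjusted p under 0.05, against 13.7%, 8.31% and 3.33% of all genes.

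Ifng, the ligand of the gamma pathway, was low on most arrays and well above background on 9 of 16. Its level was 3.61, 6.52, 10.31 and 7.47 in WT controls and 2.96, 2.95 and 7.82 in Lcn2-/- controls. With CCl4 it was 3.82, 8.30, 10.27, 7.22 and 7.75 in WT and 4.69, 6.01, 4.19 and 3.52 in Lcn2-/- livers. The highest Ifng levels were on WT control replicate 3 and WT CCl4 replicate 3, both high for the gamma-type members. It was well above background on 4 of 5 WT CCl4 and 1 of 4 Lcn2-/- CCl4 arrays, so that no size of its difference is given (limma adjusted p 0.398). The inhibitor Socs1, itself induced by interferon, was at 7.88, 8.35, 11.84 and 9.04 in WT controls, 8.63, 8.21 and 10.39 in Lcn2-/- controls, 7.91, 10.79, 10.83, 8.60 and 9.67 in WT CCl4 and 8.24, 8.45, 8.08 and 8.24 in Lcn2-/- CCl4 livers.

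**Figure D4:**
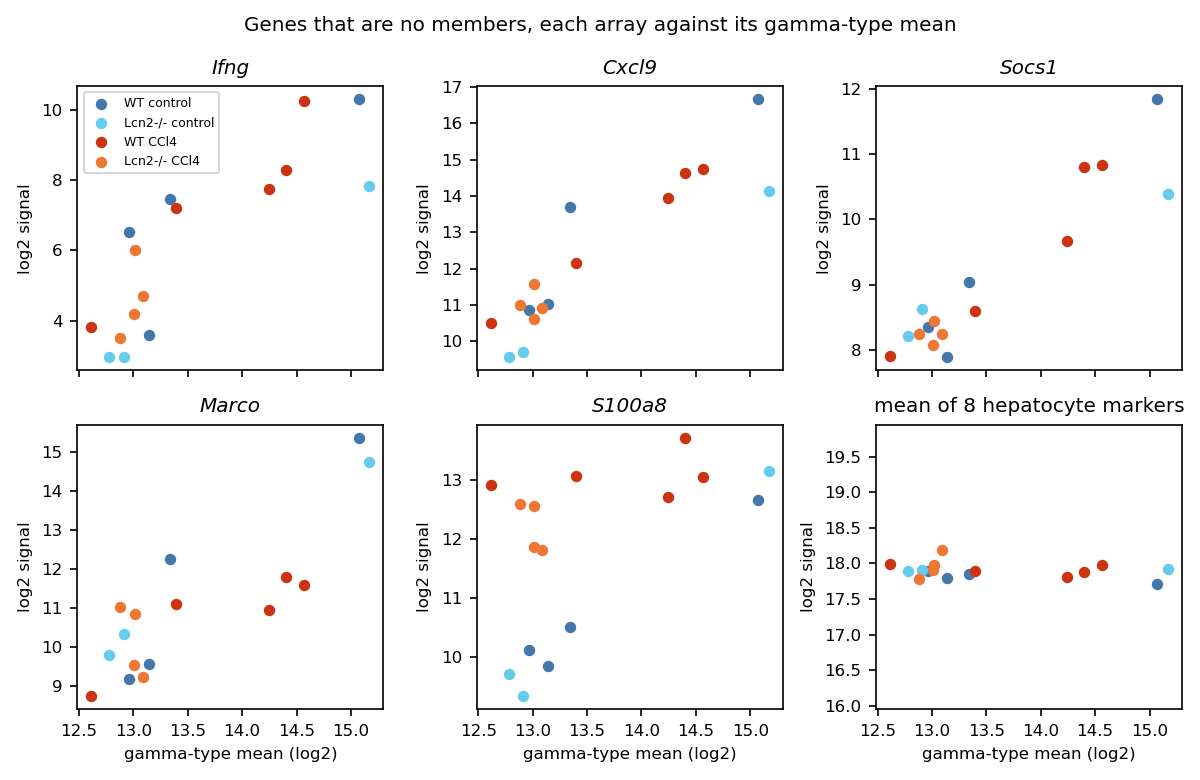
Log2 level of Ifng, Cxcl9, Socs1, the macrophage gene Marco, the neutrophil gene S100a8 and the mean of 8 hepatocyte genes (y axes) against the mean of the 10 gamma-type members (x axes) on the 16 arrays, coloured by group. Cxcl9 and Socs1 are high where the gamma-type mean is high. Marco reaches 15.38 and 14.74 on the control 3 arrays but lies lower at 10.94 to 11.78 on WT CCl4 replicates 2, 3 and 5. Other macrophage markers, not plotted, went both ways between these arrays. Adgre1 was at 13.33 and 13.13 on the control 3 arrays and at 12.88, 12.60 and 12.46 on those WT CCl4 arrays. Cd68 was at 9.26 and 8.95 against 9.87, 9.71 and 10.38, and Lyz2 at 12.26 and 10.49 against 13.58, 12.77 and 12.51. S100a8 is between 11.81 and 13.72 on the CCl4 arrays and at 12.66 and 13.16 on the control 3 arrays. The hepatocyte mean stays between 17.71 and 18.19.

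A second list held 39 other interferon-induced genes outside the Oas cluster, of which 38 were tested. Of these 30 were highest on WT control replicate 3 within their group, 34 on Lcn2-/- control replicate 3, and 30 were lowest within WT CCl4 on replicate 1. One passed in any comparison: Pml, which builds nuclear bodies, fell by 0.69 with CCl4 in WT livers (limma adjusted p 0.00518), 1 of 38 against 16.8% of all genes. The chemokine Cxcl9, a marker of interferon gamma action, was at 11.03, 10.87, 16.67 and 13.70 in WT controls, 9.71, 9.55 and 14.13 in Lcn2-/- controls, 10.49, 14.62, 14.74, 12.15 and 13.95 in WT CCl4 and 10.93, 11.57, 10.61 and 11.01 in Lcn2-/- CCl4 livers. Gbp4 was the 1 of 38 whose arrays were fully apart between genotypes under CCl4, against 5.66% of all genes, at 10.20, 12.57, 13.03, 10.98 and 12.79 in WT against 9.25, 8.85, 8.80 and 9.12 in Lcn2-/- livers, with limma adjusted p 0.167.

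Of 12 Oas genes listed 10 were tested. In both genotype comparisons 2 of them passed and 8 did not, against 0.529% of all genes called in controls and 0.636% under CCl4. Oas1a, with levels of 12.75 to 14.95 on the Lcn2-/- arrays, was well above background on 1 of 4 WT control arrays and 0 of 5 WT CCl4 arrays, so that no size of its difference is given (limma adjusted p 4.3e-07 in controls and 1.4e-08 under CCl4). Oas1f, well above background on 2 of 4 and 4 of 5 of these WT arrays, lay between 4.68 and 6.18 on the WT arrays and between 11.57 and 13.75 on the Lcn2-/- arrays.

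Markers of some other cells were high on the same control arrays as the members and are given beside them. Of 10 macrophage markers 9 were highest on WT control replicate 3 and 9 on Lcn2-/- control replicate 3 within their groups, and their mean ranged over 10.47 to 12.86 in WT controls, 10.28 to 11.95 in Lcn2-/- controls, 11.30 to 12.19 in WT CCl4 and 11.06 to 11.73 in Lcn2-/- CCl4 livers. Of 10 T and NK cell markers 7 were highest on each control 3 array, with means of 8.07 to 10.25, 7.73 to 8.96, 7.79 to 9.15 and 7.87 to 8.58 in the same order. For 9 neutrophil markers the counts were 7 and 9, with means of 8.15 to 10.22, 7.72 to 10.98, 10.30 to 11.10 and 9.87 to 10.45. WT CCl4 replicate 1, low for the members, had the lowest macrophage mean (11.30), T and NK cell mean (7.79) and B cell mean (7.88) of its group, and a neutrophil mean of 10.69, inside the range of its group. Hepatocyte markers were highest on the control 3 arrays for 0 and 2 of 8 genes, and their mean ranged from 17.71 to 18.19 over all arrays. Of sinusoidal endothelium markers 1 and 2 of 6 were highest on the control 3 arrays of WT and Lcn2-/- mice, of plasmacytoid dendritic cell markers 3 and 3 of 5, and of B cell markers 2 and 3 of 3. No marker of any list passed in a genotype comparison. In the WT response to CCl4, 5 of 9 neutrophil markers passed as higher and 4 of 10 T and NK cell markers as lower (limma). Of 10 macrophage markers 2 were higher and 2 lower. In Lcn2-/- livers these counts were 1 higher, 1 lower, and 2 higher with 0 lower. The shares of all genes that passed were 16.8% and 12.2%. The T and NK cell markers did not move together: by their means 3 of 10 were higher and 7 lower in the WT response. Cd4, with the lowest adjusted p of that list, was lowest among WT controls on replicate 3, where 7 of the 10 were highest. Plasmacytoid dendritic cell and sinusoidal endothelium markers each had 1 higher per response and 1 lower in 1 of them. Hepatocyte and B cell markers had 0. What part other cells had in the members' levels was not tested.

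For 10 members the arrays carried another probe. It passed the filter for 9 of them and did not pass the test in any comparison. The probes differed in sign in the WT response for Cmpk2 (0.24 and -0.12), Iigp1 (-0.48 and 0.02) and Zbp1 (-0.27 and 0.46), in the Lcn2-/- response for Cmpk2, Ddx58, Ifih1 and Xaf1, and in the genotype comparison under CCl4 and the interaction for Ddx58 and Ifih1 (under CCl4 -0.23 and 0.02 for Ddx58, -0.22 and 0.14 for Ifih1). For Irgm1, Isg15 and Herc6, an enzyme that attaches ISG15, both probes had the same sign in all comparisons. The other probe of Xaf1 was well above background on 7 arrays and that of Irf1 on 0.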

How the data were processed

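Per the file headers, the authors' image software (Agilent Feature Extraction 10.7.3.1) gave each array's spot intensity on a linear scale, after background subtraction, and these deposited intensity values were not normalized between arrays. A further deposited table, of log2 values made by the authors, lay within 0.05 of quantile-normalized log2 median signal minus median background for 99.8% of values (column medians 6.53 to 6.55) and served as an alternative.

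Control spots (3671 of 62976) were left out and log2 processed signal was quantile normalized. Spots of a probe were then averaged, without those marked as outliers. The filter kept probes that were well above background on 3 arrays or more (33022 of 55681), and the probe with the highest mean stood for each symbol. Accessions were named through RefSeq (GRCm38.p6), which matched 49.8% of gene spots. Of the members 33 were found by name, and Herc6 by its accession, which the files name Herc5. Probe positions are on mm9, and their place in exons or UTRs was not analysed here. The number of arrays limits the precision.

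limma 3.58.1 in R 4.3.3 fitted 1 model over the 4 groups with 5 contrasts and Benjamini-Hochberg adjustment (threshold 0.05), tested on simulated data. Groups came from the sample titles. One gene of the pathway list is counted with the list but not reported here by name. The members, lists and tests were chosen with earlier results of these data known. No member passed, so the rule named the 3 largest differences in each direction per comparison, and others were named for their role or after their values were seen. The sample titles state no pairing of animals. Only between the control groups did every replicate number correlate best with its own number (r of deviations 0.23, 0.37 and 0.55). Those arrays also share a slide column. Alternatives were the 75th percentile scaling, normexp background correction with offset 50, the deposited table, other probe filters, the mean of a gene's probes, slide as a fixed or random block, the replicate block, array weights, only the groups compared, both control 3 arrays left out, each array left out, and slide row as a block.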

Additional observations from a re-analysis of the deposited data

Results flagged for a closer look

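Within each group of 4 or 5 arrays, the members and the means of their classes were searched for an array far from all others of its group (Dixon's test at the 95% level), and 18 of 108 sets had one. Chance gives about 1 in 20 for a single set, but the sets share arrays and their members' levels went together, so that they are not independent and the count is no test. In 12 of the 18 the array was WT control replicate 3, always the highest: Isg15 at 15.92, Usp18 at 13.30, Ifi44 at 12.36, Xaf1 at 12.50, Herc6 at 10.16, Zbp1 at 13.91, Cmpk2 at 10.65, Igtp at 17.002, Irgm1 at 15.07, Psmb8 at 15.81, Psmb9 at 16.26 and the type I mean at 12.98. In the Lcn2-/- CCl4 group, whose spread was small, Ifit2 was low in replicate 2 at 9.01, Usp18 low in replicate 1 at 12.04, Gbp2 high in replicate 2 at 11.20, Irgm1 high in replicate 1 at 14.15 and Iigp1 low in replicate 4 at 13.74. In WT CCl4 livers Ifih1 was high in replicate 5 at 14.03. The Lcn2-/- controls, with 3 arrays, could not be searched in this way. The cause of these values was not tested.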

How the results depend on the processing

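With each array left out in turn, several medians changed sign: the gamma-type median ranged from -0.04 to 0.69 in the WT response, -1.07 to 0.067 in the Lcn2-/- response, -0.65 to 0.44 in controls and -1.21 to 0.12 in the interaction, and the type I median from -0.23 to 0.16 in the Lcn2-/- response, -0.37 to 0.077 in controls and -0.37 to 0.10 in the interaction. Both stayed below 0 in the genotype comparison under CCl4 (-1.13 to -0.70 and -0.43 to -0.22). The count of members past the limma threshold in the WT response was 1 with slide as a fixed block (Mx2 at -1.17, adjusted p 0.0452), 1 with array weights (Stat2, adjusted p 0.0312), 4 without both control 3 arrays and 0 to 3 when each array was left out. In the Lcn2-/- response it was 1 with array weights (Ifit2 at 1.25, adjusted p 0.0324) and 2 without both control 3 arrays. Slide as a fixed block moved the gamma-type median to -1.06 in the WT response and to -1.96 in the Lcn2-/- response. The same block moved the type I median to -0.25 in the WT response and to -0.62 in the Lcn2-/- response. It reversed, in the WT response, Ifit2 (-0.069), Igtp (-1.09) and Irgm2 (-1.09), in the Lcn2-/- response Ifit2 (-0.088) and Ifi44 (-0.19), and in the interaction Ifit2 (-0.019) and Ifit1 (-0.18). Slide row as a block, an alternative chosen after seeing the data, moved the gamma-type median to 0.35 and the type I median to 0.12 under CCl4, and the control medians to 0.45 (type I) and 1.40 (gamma-type). It reversed Igtp (0.51), Gbp3 (0.29) and Gbp2 (0.41) under CCl4, Rsad2 (0.64), Ifit2 (0.21) and Cmpk2 (0.70) in controls, and Ifit2 (-0.019) and Ifit1 (-0.18) in the interaction. Array weights reversed Irgm2 in controls (-0.020). With each array left out in turn, Irf7 ranged from -0.017 to 1.30, Igtp from -0.36 to 1.01 and Irgm2 from -0.18 to 0.79 in controls, and in the interaction Ifit2 ranged from -0.35 to 0.65, Ifit1 from -0.20 to 0.33 and Zbp1 from -1.54 to 0.017. The replicate block took same-numbered arrays of all groups together, so that WT CCl4 replicate 5, alone with its number, did not enter its differences. With this block 0 of 34 members passed in each comparison, the lowest limma adjusted p being 0.0743, 0.171, 0.297, 0.430 and 1.00. The values with slide or slide row as a block rest on WT CCl4 replicate 1, and the cause of the shifts was not tested.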
